A study of Mus musculus with 3 samples.

Results

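The expression of 10 genes of nitric oxide and tetrahydrobiopterin synthesis was described in cells of *Ednrb*-/- mice deposited as enteric neurons. The members were chosen by symbol, and all 10 (*Nos1*, *Nos1ap*, *Ass1*, *Asl*, *Gch1*, *Pts*, *Spr*, *Qdpr*, *Pcbd1* and *Gchfr*) are among the 33353 genes of the deposited table. Single-cell RNA-seq was performed on tdTomato-positive cells sorted from the longitudinal muscle and myenteric plexus of the small intestine of 3 *Wnt1-tdT; Ednrb*-/- mice (labelled C57BL/6) at postnatal day 14, with 1 library for each mouse. *Wnt1*-driven Cre turns the reporter on in cells that descend from the neural crest, and the table holds the 2060 of these cells that the authors kept as neurons. All 3 mice carry the same genotype and wild-type mice were not analysed here. Every comparison is therefore between classes of the cells kept as neurons within the mutant mice, and some classes hold glial or smooth muscle markers (below). UMIs counted over the whole gene do not check the genotype.

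Nitric oxide is a main inhibitory transmitter of the gut wall. Neuronal nitric oxide synthase, the product of *Nos1*, makes it from arginine, with citrulline as the other product, and needs tetrahydrobiopterin as a cofactor. Argininosuccinate synthase (*Ass1*) and argininosuccinate lyase (*Asl*) turn citrulline back into arginine. Tetrahydrobiopterin is built from GTP by GTP cyclohydrolase (*Gch1*), 6-pyruvoyltetrahydropterin synthase (*Pts*) and sepiapterin reductase (*Spr*). Pterin carbinolamine dehydratase (*Pcbd1*) and dihydropteridine reductase (*Qdpr*) regenerate the cofactor in its best known cycle, that of the aromatic amino acid hydroxylases. *Gchfr* encodes the feedback regulator of GTP cyclohydrolase, and *Nos1ap* encodes an adaptor protein that binds neuronal nitric oxide synthase.

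The libraries hold 354, 1050 and 656 cells for mouse 1, mouse 2 and mouse 3, with medians of 3734.5, 9599.5 and 9578.5 UMIs per cell. Cells with a UMI of *Sox10*, a glial transcription factor, were set apart first, and they were 1088 of the 2060 cells. The other cells were split by the nitrergic gene *Nos1* and the cholinergic gene *Chat* into 418 *Nos1*-only, 172 *Chat*-only, 50 double-positive and 332 negative for both (called neither). The libraries share 2 cell barcodes, in 4 cells. The *Chat*-only class of mouse 1 has 12 cells, which limits every comparison with it. Within a mouse the median depth of the fitted classes was close, at 3446.5 to 3974 UMIs in mouse 1 and 8028 to 10720.5 in the other mice. Of the *Sox10* class, 473 cells hold a single *Sox10* UMI, and the class contains 544 cells with *Nos1* but not *Chat*.

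The labelled cell type was checked against marker lists, as summed UMIs per 10000. The 10 neuronal markers summed to 58.1 to 114 in every class and mouse. The 10 glial markers summed to 17.2 to 26.5 in the *Sox10* class, which that gene helped to choose, and to 2.38 to 8.74 in the other classes. The 10 smooth muscle markers reached 151 in the neither class of mouse 1 and 7.37 at the lowest in that class. The 6 fibroblast markers reached 20.9 in the neither class and 13.4 in the *Sox10* class. The macrophage, endothelial and epithelial lists were at or below 1.05 everywhere, with *Epcam* and *Cdh1* at 0 in all cells. The 4 markers of interstitial cells of Cajal summed to 6.56 to 10.6 in *Nos1*-only cells, where the counted gene is mostly *Etv1* (7114 UMIs in all cells, against 157 of *Kit* and 24 of *Ano1*). The part of free RNA and of these other cells in the results below was not tested beyond the values given beside them.

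Promoter windows of the 250 bases before the RefSeq start (GRCm38.p6) were found for 9 of the 10 members, in 10 windows. Those of *Ass1* and *Qdpr*, which both differed between the classes, and of *Gch1*, which did not pass a test, are shown 5′ to 3′ on the strand of the gene. Capitals mark matches, on either strand, to 6 short promoter motifs that are spelled out after the sequences. The window of *Ass1* lies at chr2:31470020-31470269 (+), that of *Qdpr* at chr5:45450230-45450479 (-) and that of *Gch1* at chr14:47189414-47189663 (-).
Ass1: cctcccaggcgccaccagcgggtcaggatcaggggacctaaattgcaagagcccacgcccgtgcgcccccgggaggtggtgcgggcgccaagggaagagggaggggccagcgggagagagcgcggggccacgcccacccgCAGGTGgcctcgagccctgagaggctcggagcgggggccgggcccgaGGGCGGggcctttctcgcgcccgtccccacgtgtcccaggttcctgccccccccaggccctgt
Qdpr: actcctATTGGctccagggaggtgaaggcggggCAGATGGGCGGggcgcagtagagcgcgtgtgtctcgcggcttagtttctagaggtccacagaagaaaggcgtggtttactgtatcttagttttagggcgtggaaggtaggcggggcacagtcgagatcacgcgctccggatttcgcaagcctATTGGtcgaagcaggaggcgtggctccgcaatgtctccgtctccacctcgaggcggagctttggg
Gch1: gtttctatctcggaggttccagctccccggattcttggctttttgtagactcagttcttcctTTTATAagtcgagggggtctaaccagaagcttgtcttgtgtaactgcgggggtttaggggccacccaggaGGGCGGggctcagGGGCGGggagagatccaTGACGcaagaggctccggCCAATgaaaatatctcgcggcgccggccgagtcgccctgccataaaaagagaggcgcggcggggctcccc
*Ass1* and *Qdpr* each hold 1 GC box and 1 E-box, and in *Qdpr* these 2 matches overlap. *Gch1* holds 2 GC boxes and no E-box. Among 32851 RefSeq windows of the same length, the GC box (letters GGGCGG) is in 32.7% and the E-box (letters CAGNTG) is in 44.8%. The CCAAT box, searched as its own name spells it, is in 33.8% of these windows. The TATA box (letters TATAAA) is in 12.4%, and the core of the cAMP response element (letters TGACG) is in 17.8%. The ETS core (letters CGGAAG), in 13.6% of all windows, is in none of the 3 shown. *Qdpr* holds 2 CCAAT boxes, and *Gch1* has 1, along with 1 TATA box and 1 cAMP response element core. These matches describe the letters of the windows only. The RefSeq window of *Nos1* begins at position 117866589 of chromosome 5, inside the gene as GENCODE M21 draws it (117781032 to 117958840), and is not shown.

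*Nos1* itself splits the classes, so its levels are a description. Summed over the *Nos1*-only cells it was at 11.9, 11.8 and 10.9 UMIs per 10000 in mice 1, 2 and 3, a narrow range (11.5 ± 0.531, SD, n = 3 mice). In the *Sox10* class it was at 4.38, 5.11 and 3.78, and 51.9% ± 8.69 of those cells had a UMI. Double-positive cells had 14.3, 3.90 and 1.61, but the first of these values comes from a single cell. Over all cells *Nos1* was found in 37.9%, 54.5% and 54.7% of the cells of the 3 mice.

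**Figure D1:**
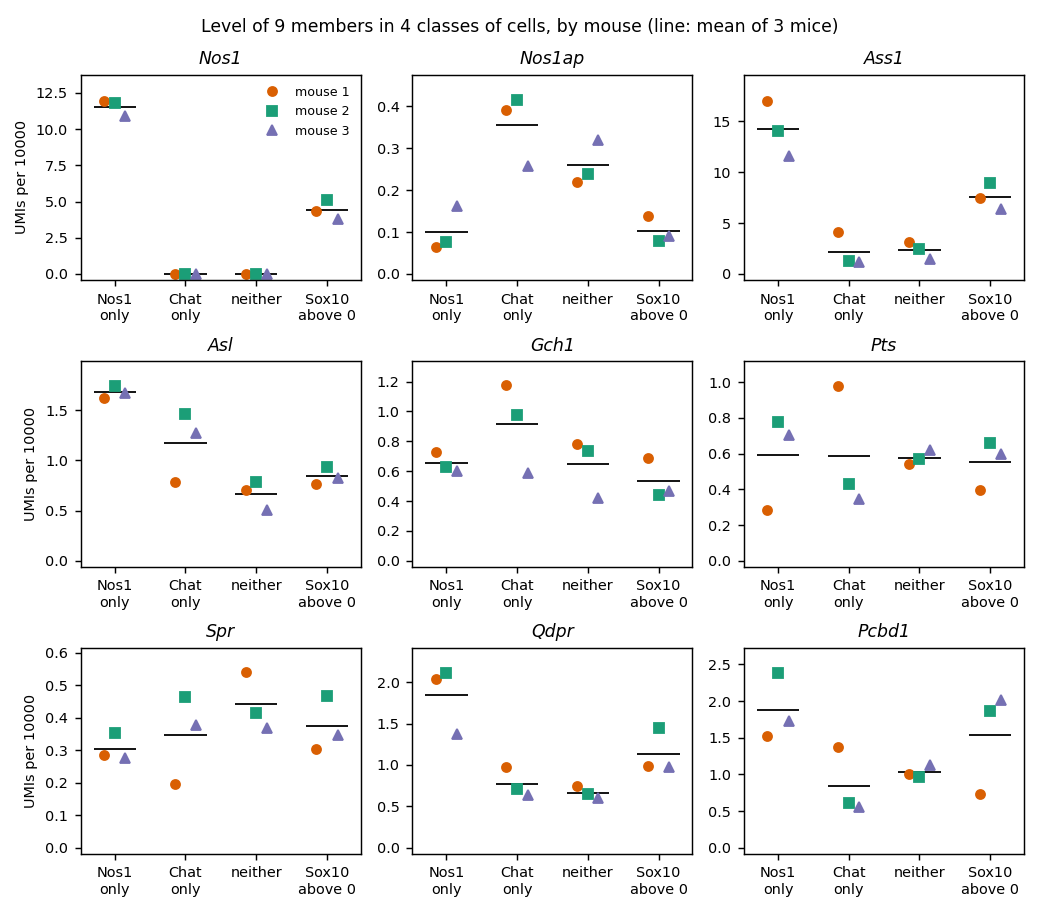
UMIs per 10000 (y axes, each with its own range) of 9 members in 4 classes of cells (x axes), with 1 point per mouse and the mean of 3 mice as a line; *Nos1* fixes the classes. *Ass1* stood at 11.6 to 17.0 in *Nos1*-only cells and at 4.12 or less in *Chat*-only and neither cells.

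*Ass1* (chr2:31470207-31520672, + strand), the first enzyme of arginine recycling, had the largest differences of the members. Positions of genes are those of GENCODE M21 on GRCm38. It was at 17.0, 14.1 and 11.6 UMIs per 10000 in *Nos1*-only cells of mice 1, 2 and 3. *Chat*-only cells had 4.12, 1.28 and 1.15, and neither cells had 3.11, 2.46 and 1.48. The 3 *Nos1*-only values lay above all values of both other classes. The summed UMIs were compared over mice with limma on log2(UMIs per 10000 + 0.1) with the mouse as a block, over 10879 genes, and p was adjusted by Benjamini-Hochberg. *Ass1* was higher in *Nos1*-only than in *Chat*-only cells by 2.87 on the log2 scale (SE 0.27, 7.31-fold on this scale, adjusted p = 0.000164), in 3 of 3 mice. Against neither cells the difference was 2.59 (SE 0.27, adjusted p = 0.000913), again in 3 of 3 mice. The within-mouse ratio to *Chat*-only cells was 4.13 in mouse 1, where 21 *Ass1* UMIs were counted in the *Chat*-only class, and 11.0 and 10.1 in the others. Without mouse 2 or mouse 3 the difference from neither cells stayed at 2.65 and 2.44 but no longer passed (adjusted p = 0.0587 and 0.091). The difference from *Chat*-only cells passed without any one mouse. Here and below, fits without mouse 2 and without mouse 3 called few genes of any kind. These were 21 and 42 against *Chat*-only cells and 0 and 6 against neither cells.

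Double-positive cells had 7.16, 6.43 and 0.998 *Ass1* UMIs per 10000 in the 3 mice, the first from 1 cell, all below the *Nos1*-only values. The share of cells with *Ass1* was also highest in *Nos1*-only cells. It was 88.8% ± 8.71 in *Nos1*-only, 53.3% ± 19.4 in *Chat*-only and 48.5% ± 5.78 in neither cells. To set the depth of cells equal, 3000 UMIs were drawn from each of 1882 cells (178 had fewer), and the cells were classed again by the drawn UMIs. A cell whose *Nos1*, *Chat* or *Sox10* UMIs were not drawn changed class. This gave 508 *Nos1*-only, 133 *Chat*-only, 630 neither and 598 *Sox10* cells. All thinned results here and below therefore compare partly other cells, and not the same classes at equal depth. The shares were then 87.3% ± 6.11, 45.2% ± 24.7 and 35.7% ± 3.71. No cell type of the table is sure to lack the gene, so the low level in *Chat*-only and neither cells cannot be told apart from free RNA. In mouse 1, 38.1% of the 84 cells with 50 or more UMIs per 10000 of the smooth muscle markers held *Ass1* (95% exact binomial interval 27.7 to 49.3%), against 67.8% of the other 270 cells (61.8 to 73.3%), at medians of 3794.5 and 3734.5 UMIs. Such cells in mice 2 and 3 held it in 82.6% and 68.8%, against 69.5% and 70.0% of the other cells. In mice 1, 2 and 3 the cells high in these markers held *Nos1* in 29.8%, 73.9% and 65.6%. Without these 162 cells the *Ass1* difference was 2.90 from *Chat*-only and 2.52 from neither cells, and both passed. *Qdpr* (1.40, adjusted p = 0.0084) and *Asl* (1.21, adjusted p = 0.022) also passed against neither cells without them. Intervals cover counting error only.

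*Asl* (chr5:130011258-130029247, - strand), which completes the step to arginine, had 1.62, 1.74 and 1.67 UMIs per 10000 in *Nos1*-only cells. Neither cells had 0.701, 0.789 and 0.505, below every *Nos1*-only value. The difference was 1.23 (SE 0.19, adjusted p = 0.0115, limma), in 3 of 3 mice. *Chat*-only cells held more *Asl* than neither cells, at 0.784, 1.47 and 1.27, and there the difference from *Nos1*-only cells was 0.52 (95% interval 0.11 to 0.94, adjusted p = 0.188). The call against neither cells was lost without mouse 2 (adjusted p = 0.342) and without mouse 3 (adjusted p = 0.32), at differences of 1.33 and 1.08, and without the mouse block (adjusted p = 0.0744). Thinned to 3000 UMIs it was 1.03 (adjusted p = 0.35).

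*Qdpr* (chr5:45434021-45450236, - strand), the reductase that restores tetrahydrobiopterin, was at 2.03, 2.12 and 1.37 UMIs per 10000 in *Nos1*-only cells. It was at 0.980, 0.708 and 0.634 in *Chat*-only cells and at 0.741, 0.645 and 0.605 in neither cells. The *Nos1*-only values did not overlap with either class. The difference was 1.15 (SE 0.18, 2.21-fold, adjusted p = 0.00526) from *Chat*-only and 1.33 (SE 0.18, 2.51-fold, adjusted p = 0.00651) from neither cells, in 3 of 3 mice each. Without mouse 2 these were 0.99 (adjusted p = 0.216) and 1.20 (adjusted p = 0.32), and without mouse 3 they were 1.22 (adjusted p = 0.115) and 1.46 (adjusted p = 0.14). The second also missed the threshold without the mouse block (adjusted p = 0.0537) and after thinning (1.24, adjusted p = 0.0793). With 2 UMIs needed to enter a class both calls were lost, at 2.34 (adjusted p = 0.0852) and 1.46 (adjusted p = 1.0).

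*Pcbd1* (chr10:61089331-61094324, + strand), the dehydratase that acts before *Qdpr* in the cycle, was higher in *Nos1*-only than in *Chat*-only cells of 3 of 3 mice but did not pass the test. *Nos1*-only cells had 1.53, 2.38 and 1.72 UMIs per 10000, and *Chat*-only cells had 1.37, 0.611 and 0.559. The ratio was 1.11 in mouse 1, where 7 *Pcbd1* UMIs were counted in the *Chat*-only class, and 3.90 and 3.09 in mice 2 and 3. With all mice the difference of 1.14 (SE 0.37) did not pass (adjusted p = 0.133). Without mouse 1 it was 1.64 (adjusted p = 1.56e-07, in a limma fit that called 1395 genes). The difference from neither cells, 0.79 with all mice (adjusted p = 0.543), was then 0.90 (adjusted p = 0.000426, where 919 genes were called). With cells thinned to 3000 UMIs the difference from *Chat*-only cells was 1.41 (adjusted p = 0.0125). The difference from neither cells was 0.58 (adjusted p = 0.837) without the cells high in smooth muscle markers and 0.40 (adjusted p = 0.952) without those with 6 or more of these markers. In mice 2 and 3 the cells high in these markers held 3.61 and 3.31 *Pcbd1* UMIs per 10000, against 1.67 and 1.61 in the other cells. In mouse 1 the values were 0.655 and 1.12, and the part of these cells in the result was not tested.

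The 3 enzymes that build the cofactor did not pass in any of the comparisons. *Gch1* (chr14:47153895-47189413, - strand), the first and rate-limiting enzyme of that route, had 0.731, 0.628 and 0.600 UMIs per 10000 in *Nos1*-only cells. It had 1.18, 0.977 and 0.589 in *Chat*-only and 0.781, 0.738 and 0.420 in neither cells, and the 3 ranges overlap. The difference was -0.39 (95% interval -0.81 to 0.04, adjusted p = 0.312) from *Chat*-only cells and 0.05 (-0.38 to 0.47, adjusted p = 0.989) from neither cells. These intervals leave out a difference the size of that of *Ass1*. *Pts* differed by 0.03 (-0.76 to 0.82) from *Chat*-only cells, but the mice did not move together. Its level was 0.286, 0.778 and 0.705 in *Nos1*-only cells against 0.980, 0.427 and 0.347 in *Chat*-only cells, with 5 UMIs behind the first *Chat*-only value. Without mouse 1 the *Pts* difference was 0.79 (adjusted p = 0.0016, in a limma fit that called 1395 genes). *Spr* lay between 0.196 and 0.541 in all of these classes, differing by -0.09 (-0.62 to 0.44) from *Chat*-only and -0.41 (-0.94 to 0.12) from neither cells.

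*Nos1ap* (chr1:170302668-170589861, - strand), the adaptor, went the other way. It had 0.0636, 0.0773 and 0.162 UMIs per 10000 in *Nos1*-only cells. *Chat*-only cells had 0.392, 0.415 and 0.257, and neither cells 0.220, 0.238 and 0.320, so that *Nos1*-only cells had less than both in 3 of 3 mice. These levels rest on 35, 53 and 58 UMIs in all, with 2 UMIs in each of the first 2 classes of mouse 1. The difference from *Chat*-only cells was -1.19 (SE 0.28, adjusted p = 0.0393), and that from neither cells was -0.86 (SE 0.28, adjusted p = 0.239). The first was lost without mouse 2 (adjusted p = 0.43, at -1.02) and without mouse 3 (adjusted p = 0.14, at -1.56), and without the mouse block (adjusted p = 0.0623). With 2 UMIs needed to enter a class it was -0.28 (adjusted p = 0.642), and without the cells high in smooth muscle markers it was -1.17 (adjusted p = 0.0788). An exon of *Nos1ap* overlaps 1 other annotated gene of the same strand, *Gm7694*, so its counts are less sure than those of the other members.

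*Gchfr* was nearly absent, with 23 UMIs in 21 of the 2060 cells (1.02%, 95% exact binomial interval 0.632 to 1.55%). It was found in 6 of 418 *Nos1*-only, 1 of 172 *Chat*-only, 1 of 50 double-positive, 0 of 332 neither and 13 of 1088 *Sox10* cells. It was under the minimum of 100 UMIs and was not tested.

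Of the 8 members tested, 2 were higher and 1 was lower in *Nos1*-only than in *Chat*-only cells, where 1.6% of all genes tested were higher and 1.45% lower. Against neither cells 3 of the 8 were higher, among 0.928% of all genes. The median difference of the 8 members was 0.28 from *Chat*-only and 0.42 from neither cells, beside 0.04 and -0.01 for all genes tested. Both comparisons use the same *Nos1*-only cells.

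**Figure D2:**
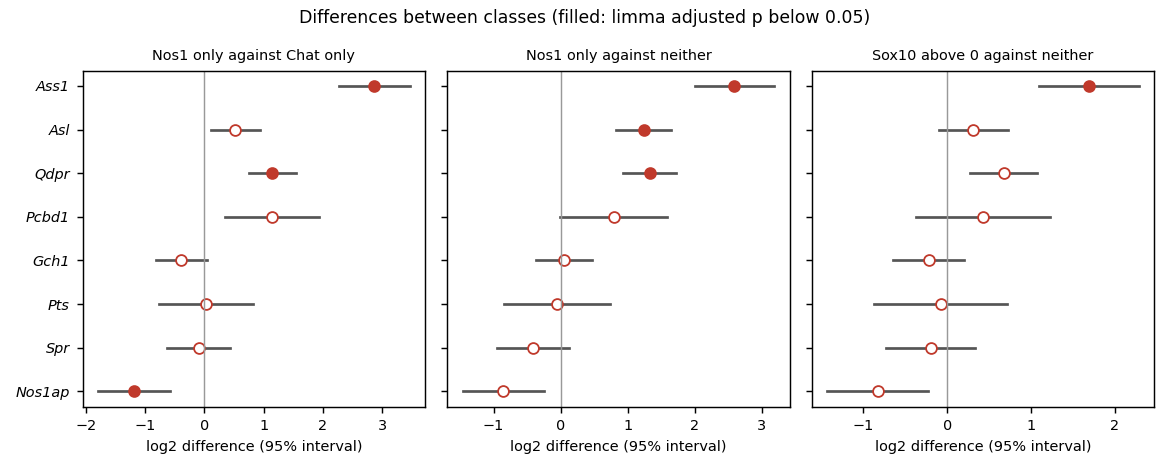
Log2 differences (x axes) of 8 members (rows) in the 3 comparisons (panels), with 95% intervals from limma; filled points passed an adjusted p of 0.05. *Ass1* was higher in each, at 2.87, 2.59 and 1.69, whereas the intervals of *Gch1*, *Pts* and *Spr* all include 0. The third comparison sets a class that holds *Nos1* cells against one that does not.

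In the *Sox10* class 1 of the 8 members, *Ass1*, passed against neither cells. It had 7.49, 8.90 and 6.34 UMIs per 10000, above the 3.11 of the highest neither value, and the difference was 1.69 (SE 0.27, adjusted p = 0.0219), while 0.395% of all genes were higher. The *Sox10* class holds *Nos1* cells and the neither class by its rule does not, so this comparison cannot tell *Sox10* from *Nos1*. In the 386 *Sox10* cells with no *Nos1* or *Chat*, *Ass1* was at 1.91, 2.16 and 2.16. Neither cells had 3.11, 2.46 and 1.48, which is more in mice 1 and 2 and less in mouse 3. For the whole *Sox10* class the call was lost without the mouse block (adjusted p = 0.425), without mouse 2 (1.63, adjusted p = 0.474), without mouse 3 (1.53, adjusted p = 0.578) and after thinning (1.27, adjusted p = 0.194). *Qdpr* had 0.991, 1.44 and 0.972 in the whole class, a difference of 0.68 (SE 0.18, adjusted p = 0.186). *Pcbd1* had 0.732 in mouse 1 and 1.87 and 2.01 in mice 2 and 3. Without mouse 1, *Qdpr* (0.83, adjusted p = 0.0019), *Pcbd1* (0.84, adjusted p = 0.00132) and *Nos1ap* (-1.02, adjusted p = 0.0105) passed as well in limma. That fit of 2 mice called 635 of 10585 genes in this comparison, 440 higher and 195 lower, against 49 with all mice.

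Cells with *Sox10* were then split by *Nos1* and *Chat*, a choice made after seeing the data, which compares cells that the first fit did not put in those classes. *Ass1* was at 14, 13.9 and 10.0 UMIs per 10000 in the 544 *Sox10* cells with *Nos1* only. It was at 3.31, 1.41 and 1.16 in the 105 with *Chat* only, 4 of them in mouse 1. The difference was 2.75 (SE 0.28, adjusted p = 0.00794, limma), beside 2.87 in cells without *Sox10*. *Pcbd1* had 1.27, 2.56 and 2.80 against 0, 1.06 and 0.690, a difference of 2.28 (SE 0.46, adjusted p = 0.0856). *Qdpr* differed by 0.77 (SE 0.40, adjusted p = 0.525), *Asl* by 1.45 (SE 0.65, adjusted p = 0.512) and *Gch1* by -0.81 (SE 0.39, adjusted p = 0.519).

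The members differed in how they followed the number of *Nos1* UMIs in a cell. Cells were thinned to 3000 UMIs, classed again, and those with *Sox10* or *Chat* were left out. These values are descriptions. The share with *Ass1* was 35.7% ± 3.71 (mean of 3 mice ± SD) in cells with 0 *Nos1* UMIs and 72.8% ± 2.40 with 1. It reached 88.3% ± 7.71 with 2 to 3 and 95.1% ± 4.84 with 4 or more, with a step up at each band in every mouse. *Asl* stayed at 18.2% ± 1.92, 23.4% ± 2.75 and 22.4% ± 7.35 in the first bands and was at 48.3% ± 6.76 with 4 or more, where the lowest mouse (43.8%) lay above every value of the lower bands. *Qdpr* went from 19.2% ± 2.86 through 33.4% ± 15.5 to 42.8% ± 16.7 and 42.8% ± 8.04 in the upper bands. Between these 2 bands it fell in mouse 1 (57.1% to 34.4%) and rose in mice 2 (46.8% to 50.4%) and 3 (24.4% to 43.5%).

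*Pcbd1* was highest in the middle. It was in 18.3% ± 3.30 of cells with 0 *Nos1* UMIs, in 43.2% ± 3.86 with 1 and in 42.3% ± 16.0 with 2 to 3. With 4 or more it was in 28.9% ± 8.81, and in each mouse this was below the value at 1 *Nos1* UMI. *Pts* was in 17.5% ± 2.39 of cells with 0 and in 8.30% ± 3.38 with 4 or more, lower in each mouse. The share of *Pts* at 1 *Nos1* UMI, 29.0% ± 18.2, holds a value of 50% from the 12 such cells of mouse 1. *Gch1* was between 11.2% and 18.7% in all bands, *Spr* between 5.59% and 12.8% and *Nos1ap* between 1.08% and 6.23%, with its highest share at 0 *Nos1* UMIs.

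**Figure D3:**
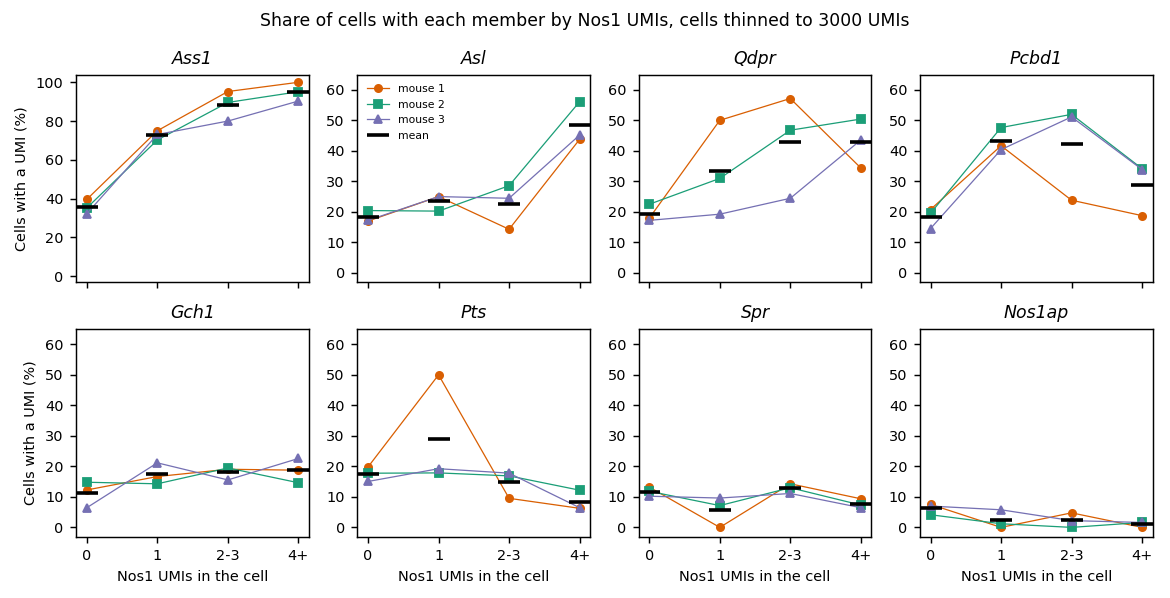
Share of cells with a UMI of each member (y axes, percent; the *Ass1* panel has a wider range) by *Nos1* UMIs in the cell (x axes), in cells thinned to 3000 UMIs, with 1 line per mouse and the mean as a bar. *Ass1* went from 35.7% to 95.1%, *Asl* stood out at 4 or more *Nos1* UMIs (48.3%), and *Pcbd1* was at 43.2% with 1 and 28.9% with 4 or more.

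Correlation over all cells of a mouse gave a like order. It is a description, since cells share a library and depth. Pearson r with *Nos1*, as the mean of 3 mice ± SD on the natural log scale, was 0.652 ± 0.0355 for *Ass1*, which ranked 2 among 5984 genes found in at least 10% of the cells of each mouse. *Etv1* ranked 1 at 0.669 ± 0.0359. The other genes among the first 10 were *Gal*, *Epha5*, *Ank2*, *Rprml*, *Celf4*, *C130073E24Rik*, *Vip* and *S100a6*, at 0.633 down to 0.480. *Vip* and *Gal* encode neuropeptides. *Qdpr* had r = 0.314 ± 0.080 (rank 52), *Asl* 0.269 ± 0.0632 (rank 82) and *Pcbd1* 0.228 ± 0.0601 (rank 129). *Gch1* had r = 0.0493 (rank 1369), *Pts* 0.00112 (rank 3026) and *Spr* -0.0603 (rank 5172), where the median of all ranked genes was 0.00172. *Nos1ap* (-0.0901) and *Gchfr* (0.0471) were in too few cells to be ranked.

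**Figure D4:**
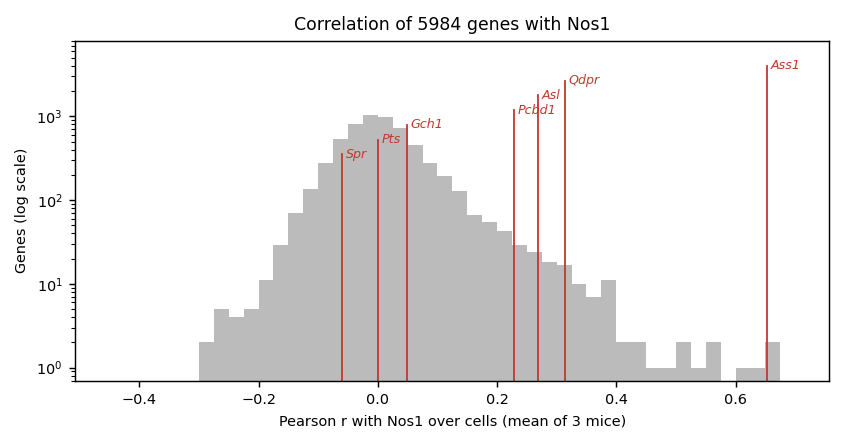
Histogram of Pearson r with *Nos1* over cells (x axis, mean of 3 mice) for 5984 genes (y axis, number of genes on a log scale), with 7 members marked by lines whose height has no meaning. *Ass1* lies at 0.652, *Qdpr*, *Asl* and *Pcbd1* between 0.228 and 0.314, and the other 3 within 0.0603 of 0.

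Among all 1065 cells with a *Nos1* UMI, those with *Sox10* or *Chat* included, r with *Nos1* was lower than over all cells for each member but *Asl*. It was 0.451 for *Ass1*, 0.298 for *Asl*, 0.101 for *Qdpr* and -0.0398 for *Pcbd1*, an alternative chosen after seeing the data. The sign differed by mouse for *Qdpr* (-0.147, 0.286 and 0.163) and *Pcbd1* (-0.148, -0.0480 and 0.0760), but not for *Ass1* or *Asl*. *Asl* thus had a larger r than *Qdpr* there. Over all cells the order of the means was the reverse, but not that of mouse 1 (0.277 for *Asl* and 0.255 for *Qdpr*). In the narrower class of 418 *Nos1*-only cells *Ass1* and *Qdpr* had r of 0.0918 in mouse 1 and of 0.473 and 0.450 in mice 2 and 3. *Pts* and *Pcbd1* had r of -0.0820 in mouse 1 and of 0.351 and 0.398 in mice 2 and 3. Mouse 1 therefore stood apart in both pairs, which are a selection from all pairs of members other than *Gchfr*. It also did so for *Pcbd1* and *Ass1* (-0.323, 0.310 and 0.412) but not for *Ass1* and *Asl* (0.260, 0.302 and 0.112).

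The neither cells were also split by *Etv1* and *Bnc2*, transcription factor genes that mark separate groups of enteric neurons. The 103 *Etv1*-only cells (21, 59 and 23 in mice 1, 2 and 3) and the 73 *Bnc2*-only cells (14, 35 and 24) hold no UMI of *Nos1*, *Chat* or *Sox10*. The values are a description and no test was run. How many of all genes differ as much was not counted, and with so few cells the low values rest on few UMIs. *Gch1* was at 0, 0.342 and 0.0936 UMIs per 10000 in *Etv1*-only cells and at 0.980, 1.51 and 0.794 in *Bnc2*-only cells. *Pcbd1* was the reverse, at 1.53, 1.13 and 1.87 against 0.140, 0.558 and 0.353. *Pts* followed *Pcbd1*, at 0.895, 0.624 and 0.796 against 0.420, 0.296 and 0.485. *Ass1* was at 7.67, 2.60 and 2.29 against 2.52, 1.81 and 0.838, higher in *Etv1*-only cells of each mouse, although the groups overlap. *Nos1ap* was at 0, 0.0805 and 0.0936 against 0.420, 0.131 and 0.176. *Qdpr* was at 0.769 ± 0.117 and 0.711 ± 0.238, *Spr* at 0.244 ± 0.190 and 0.580 ± 0.347, and *Asl* at 0.528 ± 0.354 and 0.897 ± 0.429. *Gchfr* was at 0 in both.

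Of the other genes of the pathway, 3 lists were read. Of 19 regulators of nitric oxide synthase and of arginine supply, 14 were tested, and 1 was higher and 1 lower in *Nos1*-only than in *Chat*-only cells, beside 1.6% and 1.45% of all genes tested. *Dynll1*, a dynein light chain that binds neuronal nitric oxide synthase, had 10.4, 9.31 and 7.52 UMIs per 10000 against 5.49, 6.79 and 5.62, a difference of 0.59 (SE 0.13, adjusted p = 0.0364). *Ddah1*, which breaks down methylated arginines that inhibit the synthases, had 0.827, 0.299 and 0.362 against 3.53, 1.03 and 0.695, a difference of -1.42 (SE 0.27, adjusted p = 0.015). Both were lost without mouse 2 (0.66, adjusted p = 0.362, and -1.38, adjusted p = 0.279) and without mouse 3 (0.68, adjusted p = 0.195, and -1.73, adjusted p = 0.0538). Without the mouse block they had adjusted p = 0.312 and 0.285. Fits without mouse 2 and without mouse 3 called 21 and 42 genes against *Chat*-only cells. The median of the list was -0.08, beside 0.04 for all genes.

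Of 9 genes of the nitric oxide receptor and cGMP signalling, 8 were tested and 1 was lower in *Nos1*-only than in *Chat*-only cells, beside 1.45% of all genes tested. *Gucy1a1*, a subunit of soluble guanylate cyclase, the receptor of nitric oxide, had 0.699, 0.710 and 0.648 UMIs per 10000 in *Nos1*-only cells against 2.94, 1.18 and 1.28 in *Chat*-only cells. The difference was -1.16 (SE 0.26, adjusted p = 0.0331). Without mouse 1 it was -0.78 (adjusted p = 0.000917), without mouse 2 -1.41 (adjusted p = 0.216), without mouse 3 -1.30 (adjusted p = 0.19) and without the mouse block -1.16 (adjusted p = 0.192). The call was also lost after thinning (-1.32, adjusted p = 0.0612, limma) and without cells high in smooth muscle markers (-1.18, adjusted p = 0.0641). With 2 UMIs needed to enter a class the direction of *Gucy1a1* turned, to 0.38 (adjusted p = 0.759). Its partner *Gucy1b1* differed by -0.87 (SE 0.30, adjusted p = 0.166). *Chat*-only cells of mice 1, 2 and 3 had 2.94, 1.09 and 0.982 *Gucy1b1* UMIs per 10000, the first from 12 cells. The median of this list was -0.52 from *Chat*-only and -0.04 from neither cells, beside 0.04 and -0.01 for all genes tested. Of 8 users of tetrahydrobiopterin or enzymes of related steps, 4 were tested and 0 passed in limma in any comparison. Of these 4, *Akr1b3* alone had an unadjusted p under 0.05 in both *Nos1*-only comparisons (adjusted p = 0.22 and 0.358, limma). It was lower in *Nos1*-only cells, by -0.49 from *Chat*-only and -0.53 from neither cells. None of the 3 lists had a gene that passed against neither cells or in the *Sox10* class.

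The hydroxylases of monoamine synthesis, which use the cofactor, were rare. *Th*, of catecholamine synthesis, was in 17 of the 2060 cells (0.825%), and *Tph1*, of serotonin synthesis, in 22 (1.07%). *Tph2*, also of serotonin synthesis, was in 0 of 2060 cells, which allows a share of cells with a UMI of up to 0.146% (3 counts of the total) and sets no limit on cells that express it. Of the other synthases, *Nos2* was in 2 cells and *Nos3*, the endothelial form, in 158 (7.67%, 95% exact binomial interval 6.56 to 8.90%). *Nos3* did not differ between *Nos1*-only and *Chat*-only cells beyond its error (0.17, 95% interval -0.45 to 0.80).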

How the data were processed

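Single-cell libraries (10x Genomics, 3' v3.1 chemistry) were made from sorted cells of 3 mice. The authors aligned and counted reads with Cell Ranger (version and annotation not given in the sources used here; genome mm10 per the labels), filtered cells by genes detected and mitochondrial share, merged the mice, removed confounding genes and kept neurons. They deposited natural log values, ln(1 + UMIs per 10000 UMIs of the cell), for 33353 genes. UMI counts were recovered from these values, and 100% came out whole within 1e-06. Genes not listed held 12.7% of the UMIs of the median cell. Totals were 1526256, 10358118 and 6412495 UMIs for mice 1, 2 and 3, so mouse 1 is the least precise.

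Cells were classed by at least 1 UMI of *Sox10*, *Nos1* or *Chat*, UMIs were summed per mouse and class, and 4 classes of 3 mice (12 summed libraries) were compared with limma 3.58.1 (R 4.3.3; trend and robust options) on log2(UMIs per 10000 + 0.1), with the mouse as a replicate block because classes of a mouse come from the same animal. Genes with at least 100 UMIs were tested (10879), p-values were adjusted over all of them by Benjamini-Hochberg, and the threshold was 0.05. *Nos1*, *Chat* and *Sox10* define the classes and were not tested. Values of n are mice. A fold is on the scale with the added 0.1 and understates changes of low genes. On simulated data the fit of *Nos1*-only against *Chat*-only cells recovered 44 of 100 genes changed 2-fold and 98 of 100 changed 4-fold, among 10916 genes, with 1 unchanged gene called. The changed genes were drawn only from those with at least 500 UMIs, and every summed library was given noise of the same size. These counts therefore do not cover genes with fewer UMIs or the real spread between mice. Correlations, bands and splits by *Etv1* and *Bnc2* were computed in Python 3.11.15 and not tested. Named were all members, the 10 genes with the highest correlation with *Nos1* and each gene of 3 pathway lists that passed, and genes named beyond these were chosen after their values were seen. The members and lists were chosen with earlier results of these data known. Doublets were not called here, and the paper describes no doublet calling beside its filters on genes detected and mitochondrial share. The part of doublets in the classes, such as the 544 cells with *Sox10* and *Nos1* but not *Chat*, was not tested. Alternatives are given in the closing section. The level of 1 listed gene is not reported here.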

Additional observations from a re-analysis of the deposited data

How the results depend on the processing

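Depth is limited by 3 mice and by 12 *Chat*-only cells in mouse 1. The counts of genes called were 332 (*Nos1*-only against *Chat*-only), 127 (*Nos1*-only against neither) and 49 (*Sox10* against neither). Leaving out 1 mouse gave 21 to 1395, 0 to 919 and 0 to 635 (in limma, 385 genes had an unadjusted p under 0.05 at the 0 against neither cells, without mouse 2, and 274 and 349 at the 0 of the *Sox10* comparison, without mouse 2 and mouse 3). Without the replicate block, that is without the pairing of classes by mouse, they were 115, 14 and 0 (382 genes at an unadjusted p under 0.05). With no filter they were 145, 26 and 4, with arrayWeights 1591, 1133 and 939, and with 2 UMIs to enter a class 114, 20 and 8. In the comparisons with neither cells, a pseudocount of 0.02 gave 61 and 29 and thinned cells 32 and 1. For *Nos1*-only against neither, classes regardless of *Sox10* gave 73, leaving out cells with 6 or more smooth muscle markers 83 and cells high in them 74. For *Sox10* against neither, a pseudocount of 0.5 gave 105 and the mean of cells 16. Only cells with *Sox10* gave 20 and 14 for the first and second; this setting and the removal of cells high in smooth muscle markers were chosen after seeing the data. The cause was not tested. *Ass1* against *Chat*-only passed in all 18 alternatives (2.61 to 3.41) and against neither cells in 16 of 18, *Qdpr* in 14 and 12 of 18, *Asl* against neither cells in 10 of 18 and *Nos1ap* against *Chat*-only in 6 of 15.

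Reversals concerned *Pts*, *Spr*, *Gch1* and *Gucy1a1*. Against *Chat*-only cells, *Pts* was -0.32 without mouse 2, -0.10 without cells with 6 or more smooth muscle markers and -0.054 without cells high in them, and -0.37 to 0.79 over the mice left out. *Spr* was -0.33 to 0.033 over the mice left out and 0.40 with 2 UMIs to enter a class, where *Gucy1a1* was 0.38. Against neither cells, *Gch1* was -7.83e-05 with listed genes as denominator, -0.000599 with arrayWeights, -0.050 with 2 UMIs, -0.23 and -0.0058 without the same smooth muscle cells, -0.15 as the mean of cells and -0.14 to 0.17 over the mice left out. *Pts* was 0.19 with arrayWeights, 0.14 regardless of *Sox10*, 0.34 in *Sox10* cells and -0.29 to 0.27 over the mice left out, and *Spr* was 0.15 in *Sox10* cells. In *Sox10* against neither cells, *Gch1* was 0.026 after thinning, *Pts* 0.039 with arrayWeights and -0.21 to 0.067 over the mice left out, and *Spr* -0.37 to 0.036 over the mice left out.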
